A study of Triticum aestivum with 12 samples.

Results

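Cold acclimation was compared with growth in the warm in crowns of the wheat cultivar Jing411 before any freezing. The comparison uses 6 of the 12 RNA sequencing libraries of the study, chosen by their labels: 3 of LTA plants, kept at 4 °C for 28 days, and 3 of NTG plants, kept at 20 °C for 28 days. The other 6 libraries come from plants treated in the same ways and then held at -5 °C for 24 hours (LTAF after 4 °C, NTGF after 20 °C), and they serve here as a second set in which the same contrast can be read. All 4 groups share 1 cultivar, and the labels call the 3 libraries of each group biological replicates without saying how many plants each one pools. The extraction protocol names the crown, while the tissue field of the labels gives another term. Gene identifiers stand in the files without a name or function, and the reference table holds 0 of them, so neither the tissue nor any cell type could be checked against marker genes, and genes are given by identifier.

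The crown is the compressed stem base of a cereal seedling, and it carries the growing points from which leaves and roots are replaced after winter. Weeks at low temperature above freezing harden winter cereals: membranes, sugars and protective proteins change, growth slows, and the same exposure moves winter types toward flowering, a process called vernalization. Wheat is a hexaploid with the subgenomes A, B and D, so that most genes are present in several near-identical copies. In the identifiers, the chromosome is followed by a number that rises along it, and the ending LC marks a low-confidence gene model, while models without it are high-confidence ones.

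The 6 libraries held between 18113765 and 21491305 counted reads. Their rank correlation across the tested genes was 0.964 to 0.979 within a group and 0.835 to 0.864 between groups. These values are across genes, which are not independent replicates, and describe the libraries only. The median SD of a gene within a group was 0.22 log2 CPM in NTG and 0.23 in LTA, against 0.37 in NTGF and 0.33 in LTAF. CPM are counts scaled to a common library size after TMM, a normalization that sets the bulk of genes level between libraries. They are not corrected for gene length. Counting intervals and floors leave out every other error. The edgeR p-values set a difference against a spread estimated from all 12 libraries, frozen ones included, and shared in part across genes.

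Acclimated crowns differed from unacclimated ones in many genes, in nearly equal numbers up and down. Of 69693 models with enough counts, edgeR's quasi-likelihood test called 13907 higher in LTA (20% of those tested) and 12600 lower (18.1%) at a Benjamini-Hochberg adjusted p under 0.05, 38% in all. The changes were moderate for most genes. The median log2 fold change was 1.30 among genes that rose, with the middle 50% of genes between 0.85 and 1.90, and -1.41 among genes that fell, between -0.91 and -2.31. The tail was longer among genes that fell: 1276 genes rose at least 8-fold and 1904 fell at least 8-fold, and 687 and 1009 changed at least 16-fold. In 99.1% of the called genes the 3 LTA libraries all lay on one side of the 3 NTG libraries, which was the case in 60.2% of all tested genes. High-confidence models rose in 20.6% and fell in 19.5% of cases, low-confidence models in 16.9% and 11.1%. Scaling by library totals moved the median log2 fold change over the tested genes from -0.06 to -0.40. It called 9172 genes higher and 22347 lower, so that 29.1% of the called genes were higher against 52.5%, and directions below are relative to the bulk of genes. In bulk tissue, fewer cells of a type and less RNA per cell cannot be told apart, nor can temperature and any difference in growth stage after 28 days.

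**Figure D1:**
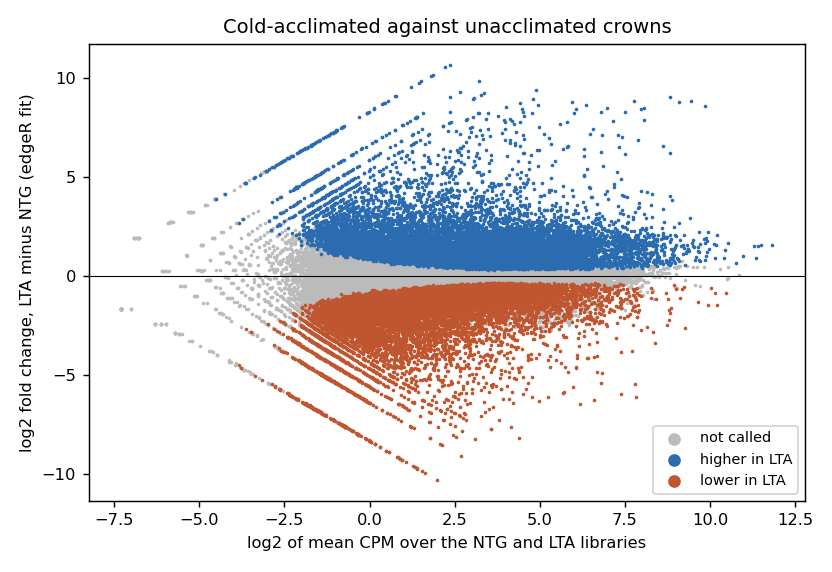
Fitted log2 fold change of LTA minus NTG (vertical axis) against the log2 of the mean CPM over the 6 libraries (horizontal axis), 1 point per tested gene, with genes called higher in blue, lower in orange and not called in grey. At the right, where counts are high, blue points outnumber orange ones, and the 31 tested models without a count in either group are not drawn.

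Genes with the most counts rose far more often than they fell, with TMM and with library totals alike. Among the 1410 models with a mean over 100 CPM in the 6 libraries, 727 rose (51.6%) and 161 fell (11.4%). From 10 to 100 CPM, 5516 of 17002 rose (32.4%) and 2798 fell (16.5%). From 1 to 10 CPM the shares were 17.1% and 19.4% of 36174 models, and under 1 CPM they were 9.88% and 17.4% of 15107. The median log2 fold change went from -0.28 in the lowest class to -0.10, 0.12 and 0.60 in the highest. With library totals the class over 100 CPM still held more genes that rose (39.5%) than fell (19.1%), but that from 10 to 100 CPM turned, with 22.2% higher and 33.1% lower, and the lower classes held 10.4% and 34.4%, and 7.07% and 26.5%. Counts are not per length, and a gene that rises adds to its own mean, so the classes describe how calls are spread over depth.

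The counts of acclimated crowns were concentrated in fewer models. The 10 models with most counts took 3.21%, 2.90% and 2.96% of the counts in the LTA libraries and 1.96%, 1.93% and 2.06% in NTG. The 100 models with most counts took 11.6% ± 0.497 in LTA and 8.53% ± 0.267 in NTG (SD, n = 3). The LTA values lay above all NTG values in both cases. The number of models with at least 1 count was 91530, 93642 and 93027 in LTA and 99662, 98388 and 96547 in NTG, and 91675 ± 747 against 97106 ± 758 after every library was thinned to the smallest total of the 6. All of these measures gave p = 0.1 in an exact two-sided permutation test, which is the lowest value possible with 3 libraries on each side. In the frozen libraries the number of models with at least 1 count overlapped, at 93209, 92644 and 92185 in LTAF and 92180, 94292 and 93057 in NTGF, so that NTG alone lay higher. The share in the 100 models with most counts did not overlap there, at 11.9%, 9.94% and 13.0% in LTAF and 8.39%, 9.46% and 8.18% in NTGF. The share of counts in low-confidence models was 5.80% ± 0.246 in LTA and 5.81% ± 0.160 in NTG, with overlapping groups (exact permutation p = 0.9).

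**Figure D2:**
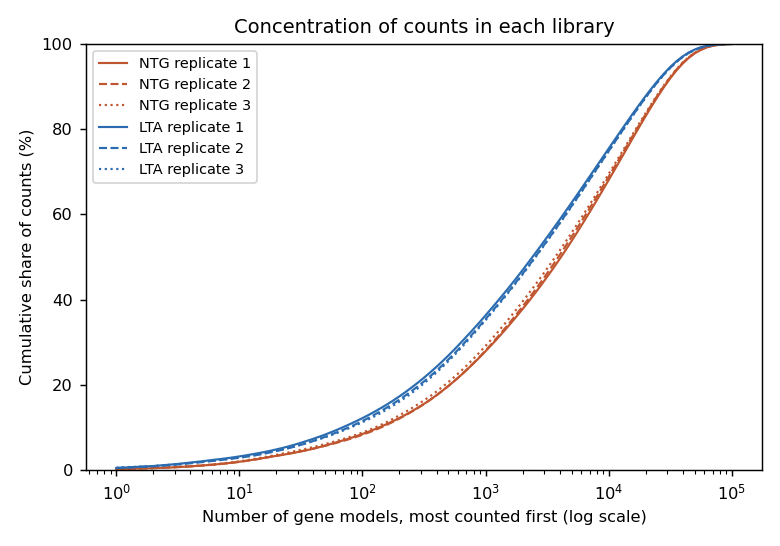
Cumulative share of a library's counts (vertical axis, percent) over its gene models ordered from most to least counted (horizontal axis, log scale), 1 line per library. The 3 LTA lines lie above the 3 NTG lines from 10 to 10000 models, with 11.6% against 8.53% of the counts in the first 100.

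The transcripts that gained most took up a growing part of the counts. The 10 genes that gained most CPM, all called higher, went from 1.24% ± 0.0440 of the counts in NTG to 2.94% ± 0.138 in LTA, and the 100 that gained most from 4.26% ± 0.185 to 10.8% ± 0.400 (SD, n = 3). The 100 that lost most fell from 4.87% ± 0.161 to 1.35% ± 0.00582. These lists were chosen by the values given, which therefore describe them and test nothing. Values of the frozen libraries were not used to rank these genes, but those libraries shared the filter, the scaling and the fit behind the calls. There the 100 gainers held 4.19% ± 0.845 of the counts in NTGF and 10.5% ± 1.53 in LTAF. Of these gainers, 88 were called higher in LTAF, where 20.2% of all tested genes were. The 100 losers held 4.18% ± 0.192 in NTGF and 1.32% ± 0.211 in LTAF, and 91 were called lower, where 19.6% of all tested genes were.

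The genes with the largest gain in CPM were TraesCS3B01G186100 and TraesCS5D01G329200, high-confidence models on chromosomes 3B and 5D. TraesCS3B01G186100 lay at 1994, 1962 and 1521 CPM in the NTG libraries and at 5398, 5172 and 5814 CPM in the LTA libraries. Its log2 fold change was 1.58 ± 0.41 (SE; edgeR adjusted p = 0.00973). TraesCS5D01G329200 lay at 1495, 1243 and 1647 CPM in NTG and at 4900, 4314 and 3841 CPM in LTA, a log2 fold change of 1.57 ± 0.29 (SE; edgeR adjusted p = 0.00128). Both transcripts were abundant already in the warm and rose 2.99-fold and 2.98-fold in the cold. Their groups did not overlap, which was a condition for naming a gene. The largest losses were on 5B. TraesCS5B01G492500 lay at 1777, 1727 and 1719 CPM in NTG and at 590, 664 and 658 CPM in LTA (log2 fold change -1.45 ± 0.18, SE; edgeR adjusted p = 1e-04). TraesCS5B01G013200 lay at 1319, 1392 and 1622 CPM in NTG and at 559, 539 and 485 CPM in LTA (log2 fold change -1.45 ± 0.15, SE; edgeR adjusted p = 3.08e-05). The loss of both was partial, 2.73-fold and 2.74-fold.

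Among genes with at least 10 CPM in both groups, where no fold rests on a near-empty group, the largest rises were those of TraesCS6A01G350300 and TraesCS1D01G296500. TraesCS6A01G350300 lay at 11.2, 13.9 and 11.9 CPM in NTG and at 885, 1070 and 749 CPM in LTA. That is a log2 fold change of 6.19 ± 0.75, or 73.0-fold (SE; edgeR adjusted p = 0.000112). TraesCS1D01G296500 rose from 10.7, 10.6 and 11.8 CPM to 371, 327 and 279 CPM, 29.6-fold (log2 fold change 4.89 ± 0.75, SE; edgeR adjusted p = 0.000571). Both went from a low and even level in the warm to a place among the abundant transcripts. The largest falls were those of TraesCS7A01G010300 and TraesCS7D01G375700. TraesCS7A01G010300 fell from 264.8, 150.3 and 128 CPM to 15.9, 10.6 and 5.25 CPM, 17.1-fold (log2 fold change -4.09 ± 0.59, SE; edgeR adjusted p = 0.000364). TraesCS7D01G375700 fell from 393, 81.2 and 105 CPM to 9.89, 20.1 and 5.51 CPM, 16.3-fold (log2 fold change -4.03 ± 0.83, SE; edgeR adjusted p = 0.00337). NTG replicate 1 lay far above the other NTG libraries for this last gene, and without it the log2 fold change was -2.98 (edgeR adjusted p = 0.0118), without LTA replicate 2 -4.64.

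The leading genes by fitted fold were all but silent in one group. They were ranked among called genes with no overlap of libraries and at least 10 CPM in the higher group. TraesCS2B01G031100 had no count in the 3 NTG libraries and 6.49, 14.3 and 9.87 CPM in LTA. Set against 3 counts summed over the NTG libraries as the floor, it was at least 252.8-fold higher (edgeR adjusted p = 2.66e-05). A single count over the NTG libraries stood for TraesCS5D01G265700, which lay at 9.67, 30.01 and 15.9 CPM in LTA (edgeR adjusted p = 0.000129). This is a ratio of 1385 with a 95% exact counting interval of 248.1 to 54760. In the other direction TraesCS5D01G395600 had 14.2, 9.46 and 14.5 CPM in NTG and 1 count over the LTA libraries (edgeR adjusted p = 7.76e-06), a ratio of 721 (129.1 to 28510). TraesCS6B01G361400 had 29.8, 9.46 and 12.3 CPM in NTG and 3 counts over the LTA libraries (edgeR adjusted p = 7.03e-05), a ratio of 335 (114.2 to 1624). All 4 separated the groups, which was a condition for naming a gene, but the sizes of the last 3 moved with single libraries. The fitted log2 fold change of TraesCS5D01G265700 went from 9.87 to 11.48 without NTG replicate 1 and to 9.34 without LTA replicate 2. That of TraesCS5D01G395600 went from -9.06 to -10.97 without LTA replicate 2. That of TraesCS6B01G361400 went from -8.20 to -7.54 without NTG replicate 1 and to -9.02 without LTA replicate 2.

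Complete switches were few. Only 16 tested models had no count in any NTG library and at least 1 CPM in every LTA library, and 14 had no count in LTA and at least 1 CPM in every NTG library, with 13 high-confidence models in each set. All of them were called, which the choice itself makes likely. In the frozen libraries, 12 of the 16 had at least 1 CPM in every LTAF library, and 6 of these had no count in NTGF. Of the 14, 3 had at least 1 CPM in every NTGF library, and 11 had a count in LTAF.

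**Figure D3:**
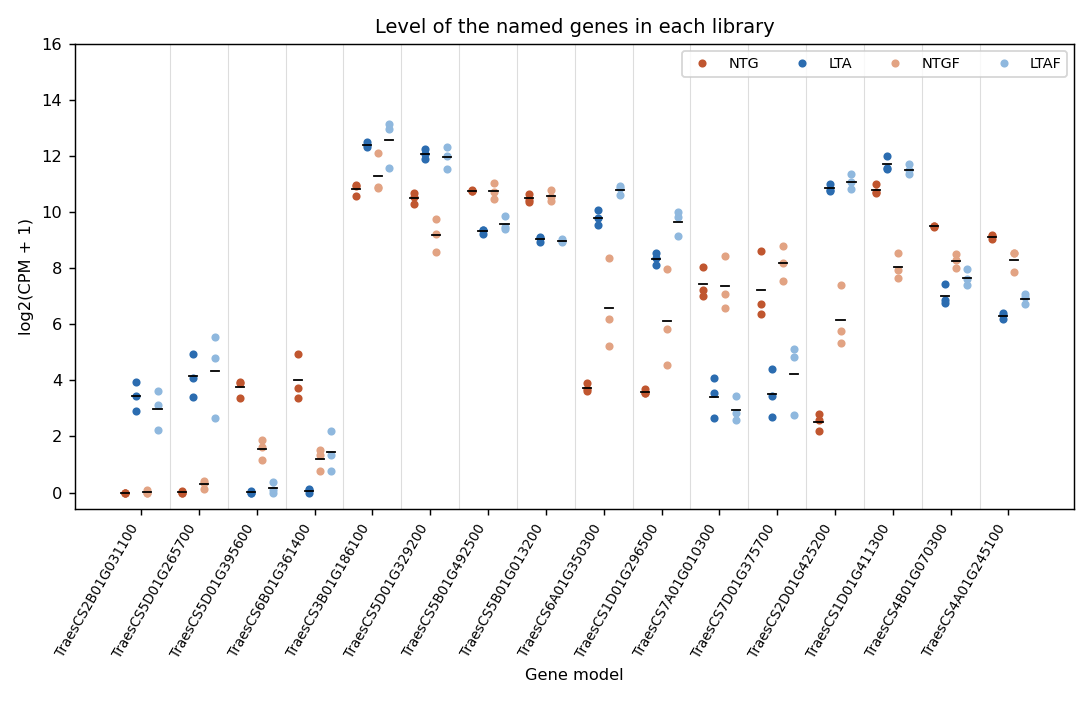
Level of each of the 16 named genes as log2(CPM + 1) (vertical axis) in the 12 libraries, with 1 point per library, the mean of each group of 3 as a black line, and the groups NTG, LTA, NTGF and LTAF side by side for each gene model (horizontal axis). The NTG and LTA points do not overlap for any gene shown, which was a condition for naming a gene. The frozen groups overlap for TraesCS6B01G361400 and TraesCS3B01G186100.

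All chromosomes took part in the change. Among tested high-confidence models, the share that rose ran from 17.3% on chromosome 1D to 22.3% on 4D, and the share that fell from 17.2% on 6A to 21.8% on 1D. Chromosome 1D held 432 genes that rose and 544 that fell, the widest excess of falls in this list. The subgenomes were close to each other, with 21.1%, 20.1% and 20.6% of genes higher in A, B and D and 18.7%, 19.7% and 20.1% lower. Genes that rose at least 8-fold made up 2.23% of the tested models on the group 5 chromosomes (5A, 5B and 5D) and 1.44% to 1.83% on the other groups. Near-identical copies can share reads, so the subgenomes are not independent of one another, and no difference between chromosomes was tested.

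Genes that fell were more frequent in the outermost bins of most chromosomes, while the share of genes that rose differed little between bins when the chromosomes were pooled. Each of the 21 chromosomes was divided into 10 bins with equal numbers of high-confidence models. In the first and the last bin 22.3% and 23.4% of the tested models fell, and in the fourth and the fifth 17.5% and 16.8%. The share that rose was 20.7% and 19.6% in the first and the last bin and 21.6% and 22.0% in the fourth and the fifth. On 20 of the 21 chromosomes the end bins held a larger share of falls than the 4 middle bins, 5D being the exception with 20.8% against 21.8%. The difference was widest on 6B, with 27.0% in the end bins and 15.0% in the middle. For rises the middle had the larger share on 10 of the 21. Rises were rarer at the ends of the group 6 chromosomes, with 15.4% against 23.2% in the middle on 6A, 12.8% against 23.0% on 6B and 14.9% against 22.6% on 6D. Falls of at least 8-fold made up 4.80% and 4.29% of tested models in the first and the last bin and 2.14% and 1.98% in the fourth and the fifth. Models near the ends were also tested less often, 61.3% and 61.5% against 77.3% and 77.1%, and their part in this pattern was not tested. Among models with a mean of at least 10 CPM, 17.4% fell in the first bin and 18.9% in the last. The 4 middle bins held 14.9%, 14.3%, 15.4% and 15.8%. The lowest share was 13.7%, in the second bin, and the eighth and the ninth held 18.2% each, above the first. In the frozen libraries the share lower in LTAF than NTGF was 22.1% in both end bins but 22.3% in the eighth and in the ninth, 21.5% in the seventh and lowest, at 18.2%, in the fourth, so the end bins did not stand apart there.

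**Figure D4:**
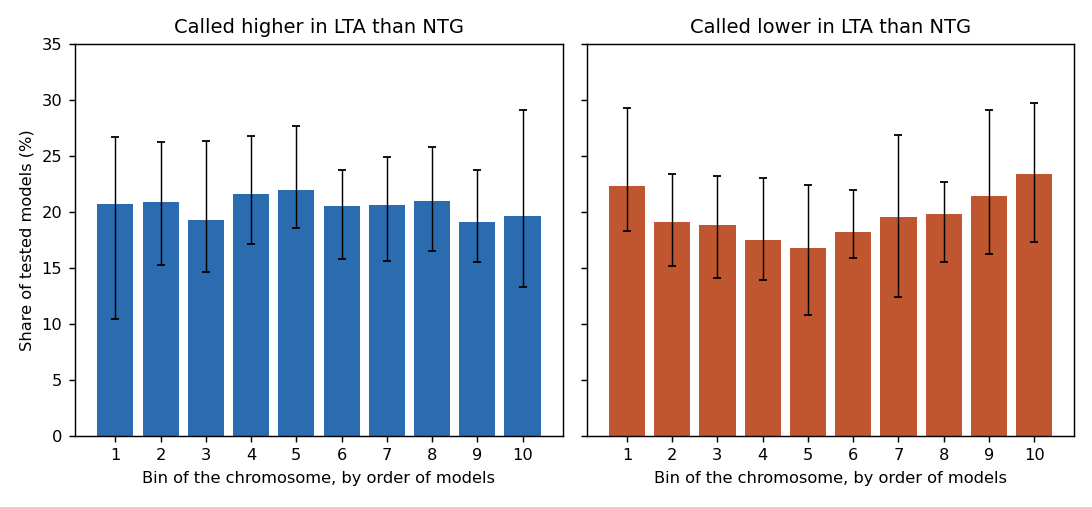
Share of tested high-confidence models called higher (left) and lower (right) in LTA than NTG, in percent (vertical axis), by bin of the chromosome in identifier order (horizontal axis, 10 bins). Bars pool 21 chromosomes and lines run from the lowest to the highest chromosome, and the right panel dips from 22.3% and 23.4% at the ends to 16.8% in the fifth bin.

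Neighbouring genes shared a direction little more often than the background. After a high-confidence model that rose, the next tested model had risen in 23.2% of cases, against 20.6% of all placed models, and fallen in 17.6%, against 19.5%. After one that fell, the next had fallen in 22.8% and risen in 18.9%. Unbroken stretches of at least 5 models called the same way numbered 39 for rises and 37 for falls. How many would arise from the shares of called models alone was not tested. The longest rising ones had 9 models each, on 5A (218600 to 219700) and 5D (226900 to 227700), followed by 8 models on 5D (456400 to 459400). LTA replicate 1 lay below the other LTA libraries in both of the first: the 5A stretch was at -1.71, -1.67 and -1.53 log2 CPM in NTG and 1.70, 3.22 and 3.19 in LTA, and the 5D stretch at -2.23, -2.11 and -1.67 in NTG and 0.79, 3.29 and 3.19 in LTA. The mean of the 8 models was 0.02 ± 0.32 log2 CPM in NTG and 2.31 ± 0.22 log2 CPM in LTA (SD, n = 3 each). The longest falling stretches had 8 models. On 3A (433800 to 435200) the mean went from 1.5 ± 0.09 to -0.68 ± 0.08 log2 CPM, with at least 7 of the 8 called whichever library was left out. On 7D (516600 to 517500) it went from 2.30 ± 0.20 to -0.05 ± 0.13, with 5 called without LTA replicate 1 or LTA replicate 3. A stretch of 6 on 5D (487900 to 488900) had a mean log2 fold change of -7.46, but its NTG libraries lay far apart, at 3.70, -0.66 and 2.46 log2 CPM. NTG replicate 2 was the low one, and the LTA libraries lay at -3.10, -2.33 and -3.31. In LTAF against NTGF, 3 of the 9 models on 5A were called higher, and on 5D 4 of the 9 and 5 of the 8. Of the falling stretches, 3 of 8 models were called lower on 3A, 2 of 8 on 7D and 0 of 6 on 5D. In that contrast 20.2% of all tested genes were called higher and 19.6% lower. Of all genes called in LTA against NTG, 57.5% of rises and 49.4% of falls were called again. Copies in tandem can share reads, and these stretches were chosen after their values were seen.

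The same contrast after freezing shares no library with LTA against NTG, and it called again more than 50% of the genes that rose and just under 50% of those that fell. Both contrasts come from 1 fit of all 12 libraries, with a shared filter and a shared spread for each gene. The calls of the contrasts are therefore not independent, and the part of this in the overlap was not tested. Of the 13907 genes higher in LTA, 7997 (57.5%) were called higher in LTAF than NTGF, where 20.2% of all tested genes were, and 293 (2.11%) were called lower. Of the 12600 genes lower in LTA, 6227 (49.4%) were called lower in LTAF, where 19.6% of all tested genes were, and 331 (2.63%) were called higher. As a share of the frozen lists, the shared genes were 56.9% of the 14057 higher and 45.6% of the 13664 lower in LTAF. The sign was the same in 86.7% of the genes that rose and 82.0% of those that fell. The median log2 fold change of the genes that rose was 1.30 without freezing, on which they were chosen, and 0.78 after it, while for genes that fell it was -1.41 and -0.87. Over all tested genes the medians were -0.06 and -0.03. NTGF and LTAF libraries spread more than the unfrozen ones, so a missing call after freezing does not show a missing difference. With library totals the number of shared falls was 10174, and leaving out each library in turn gave 4402 to 7710 shared falls and 6575 to 8392 shared rises.

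Large rises recurred more often after freezing than large falls. Of the 1276 genes that rose at least 8-fold, 978 (76.6%) were called higher in LTAF and 21 lower. Of the 1904 that fell at least 8-fold, 768 (40.3%) were called lower and 21 higher. Among changes under 2-fold the order was the other way, with 1880 of 4695 rises (40%) and 1889 of 3773 falls (50.1%) called again. The genes that fell at least 8-fold had a median level of 2.13 ± 0.799 CPM in NTG and 0.0866 ± 0.0275 in LTA, and of 0.789 ± 0.151 CPM in NTGF and 0.264 ± 0.0315 in LTAF (SD over the 3 libraries). Those that rose at least 8-fold had medians of 0.162 ± 0.0265 CPM in NTG and 4.03 ± 0.618 in LTA, and of 0.501 ± 0.141 in NTGF and 5.29 ± 1.96 in LTAF. The strongly falling genes thus had lower medians in NTGF than in NTG. They were chosen for high NTG against LTA values, which by itself raises their NTG median. The part of this choice and of their low counts in the missing calls was not tested.

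**Figure D5:**
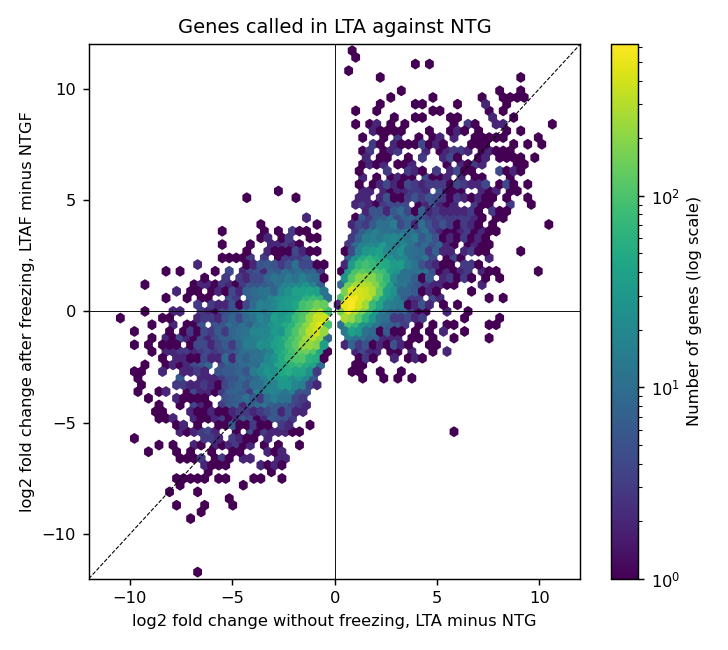
Log2 fold change of LTAF minus NTGF after freezing (vertical axis) against that of LTA minus NTG without freezing (horizontal axis) for the genes called in the latter, coloured by the number of genes per hexagon (log scale). The dashed line marks equal changes. Of the genes to the right of 0, 86.7% lie above the horizontal line, and of those to the left 82.0% lie below it.

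Of the 16 named genes, 15 were called in the same direction in LTAF against NTGF. Over all tested genes, 20.2% were called higher and 19.6% lower there. The named genes were chosen for large differences between LTA and NTG. Some were also chosen for a called interaction, which uses the frozen libraries, so the count tests nothing. Of the 2 largest gains in CPM, TraesCS3B01G186100 lay at 1912, 4451 and 1877 CPM in NTGF and at 7912, 3082 and 9055 CPM in LTAF. These frozen groups overlap, NTGF replicate 2 lying above LTAF replicate 2, though the fit called the gene (log2 fold change 1.28 ± 0.40, SE; edgeR adjusted p = 0.0252). TraesCS6A01G350300 lay at 36.4, 71.5 and 332 CPM in NTGF and at 1864, 1546 and 1967 CPM in LTAF, a fold of 12.2 after freezing against 73.0 before it (interaction -2.58 ± 0.86 on the log2 scale, SE; edgeR adjusted p = 0.077). TraesCS7A01G010300 lay at 348, 94.1 and 134 CPM in NTGF and at 9.81, 6.16 and 4.97 CPM in LTAF, a fall of 27.5-fold against 17.1-fold (interaction -0.69 ± 0.75, SE; edgeR adjusted p = 0.593). For neither gene did the interaction pass the threshold, which does not show that the responses were equal.

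For other genes the difference itself changed with freezing. The interaction term, the difference after freezing minus that before it on the log2 scale, was called positive in 3566 genes (5.12% of those tested) and negative in 4122 (5.91%). TraesCS2D01G425200 showed the largest gain in CPM among the genes with such a term that rose: it lay at 5.95, 3.52 and 4.99 CPM in NTG and at 2049, 1739 and 1786 CPM in LTA, 385-fold higher (edgeR adjusted p = 5.09e-06). After freezing it lay at 39.4, 53.9 and 166 CPM in NTGF and at 2177, 1815 and 2617 CPM in LTAF, 25.5-fold higher (interaction -3.92 ± 0.64, SE; edgeR adjusted p = 0.00753). The acclimated levels were alike with and without freezing, and the unacclimated ones were higher after it. TraesCS1D01G411300 showed the reverse. It went from 1689, 1652 and 2058 CPM in NTG to 4102, 3002 and 3078 CPM in LTA, 1.89-fold higher (edgeR adjusted p = 0.00916). After freezing it lay at 244, 371 and 202 CPM in NTGF and at 2879, 2618 and 3356 CPM in LTAF, 10.8-fold higher (interaction 2.52 ± 0.33, SE; edgeR adjusted p = 0.00272).

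Among genes that fell, TraesCS4B01G070300 lay at 722, 714 and 726 CPM in NTG and at 116, 172 and 109 CPM in LTA, 5.46-fold lower (edgeR adjusted p = 1.29e-05). In NTGF it lay at 313, 257 and 366 CPM and in LTAF at 196, 167 and 253 CPM, 1.52-fold lower (interaction 1.84 ± 0.30, SE; edgeR adjusted p = 0.00719). TraesCS4A01G245100 lay at 532, 566 and 579 CPM in NTG and at 83.0, 80.3 and 71.2 CPM in LTA, 7.15-fold lower (edgeR adjusted p = 3.92e-06). In NTGF it lay at 373, 229.7 and 369 CPM and in LTAF at 104, 125 and 133 CPM, 2.68-fold lower (interaction 1.42 ± 0.27, SE; edgeR adjusted p = 0.0109). Both had their highest level in the warm without freezing and a smaller gap after freezing. TraesCS6B01G361400, named above for its fall, had 1.84, 0.692 and 1.52 CPM in NTGF and 3.59, 0.684 and 1.55 CPM in LTAF, so that its difference was not found after freezing (edgeR adjusted p = 0.537 for LTAF against NTGF, interaction 8.72 ± 1.17, SE, adjusted p = 0.00394). The fall for which it was named is itself part of that interaction term. The count of 7688 interaction calls depended on the libraries used: it was 3153 with the replicate number as a block and 12701 without LTAF replicate 2. It was 2972 without NTG replicate 1, 3741 without NTG replicate 2, 2436, 5096 and 3279 without LTA replicates 1, 2 and 3, and 2346 and 3746 without LTAF replicates 1 and 3.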

How the data were processed

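Per the file headers, the values deposited by the authors are raw read counts of gene models in 12 libraries, whole numbers without normalization. It lists 128497 models, 82323 of them high-confidence. For the aligner, the counter, the build, the strand setting and reads that match several copies, methods were not given in the sources used here. Groups come from the sample titles. In edgeR 4.0.16 (R 4.3.3), filterByExpr (minimum count 10) kept 69693 models, TMM scaled the libraries, and 1 robust quasi-likelihood fit of all 12 libraries with a mean per group gave the contrasts, adjusted by Benjamini-Hochberg over all tested models. The SE of a log2 fold change was its size divided by the square root of the F statistic. Genes named were called in LTA against NTG with no overlap of libraries, 2 per direction for each of 4 rankings: largest fold with at least 10 CPM in the higher group, largest CPM difference, largest fold with at least 10 CPM in both groups, and largest CPM difference among genes with a called interaction. The comparison and lists were chosen with earlier results of these data known. Lists of genes by function had no member, since the identifiers carry no names. Alternatives were other scalings, no filter, DESeq2 1.42.0, limma-voom (limma 3.58.1), a replicate block, high-confidence models only, LTA and NTG libraries only, and each library left out.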

Additional observations from a re-analysis of the deposited data

Results flagged for a closer look

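The acclimation difference of 6 named genes differed between unfrozen and frozen crowns by the interaction test in edgeR, given here as the difference after freezing minus that before it on the log2 scale. It was 5.05 for TraesCS5D01G395600 (adjusted p = 0.042), 8.72 for TraesCS6B01G361400 (adjusted p = 0.00394), -3.92 for TraesCS2D01G425200 (adjusted p = 0.00753), 2.52 for TraesCS1D01G411300 (adjusted p = 0.00272), 1.84 for TraesCS4B01G070300 (adjusted p = 0.00719) and 1.42 for TraesCS4A01G245100 (adjusted p = 0.0109). The last 4 were chosen for a called interaction, so their p-values add nothing to that choice. The first 2 were chosen for a large fall in LTA against NTG. That fall enters the interaction with its sign reversed, so both terms rest in part on that choice. For TraesCS5D01G395600 the call ended under 12 alternatives, with 3.98 (adjusted p = 0.0887) by limma-voom, 5.04 (adjusted p = 0.0519) with the replicate block, and 3.21 (adjusted p = 0.37) without LTAF replicate 3. That gene had 1 count over the LTA libraries and 6 over the LTAF libraries. With 3 libraries a group, no single library was tested as an outlier.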

How the results depend on the processing

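Library totals in place of TMM gave 9172 higher and 22347 lower genes in LTA, 14643 at least 2-fold lower and 10174 lower both before and after freezing. The replicate block gave 3153 interaction calls against 7688. High-confidence models alone put the difference in models with a count at -3640 against -5466. All other counts by DESeq2 size factors, no filter, DESeq2, limma-voom, the replicate block, high-confidence models or the LTA and NTG libraries alone stayed within 1.5 times, the latter with 17236 higher and 16850 lower. Deviations of LTA and NTG libraries with the same replicate number correlated at -0.13, -0.07 and -0.02, and those with different numbers at -0.12 to 0.15. Libraries with the same number were thus no closer to each other, and a shared batch was not tested. With the block, 12408 genes were higher and 10529 lower. Leaving out 1 library gave 11022 to 14998 higher, 8907 to 16026 lower, 8262 to 9747 at least 2-fold higher, 7025 to 10799 at least 2-fold lower, and 2346 to 12701 interaction calls. The 16 named differences kept their direction and call in all 304 values under the alternatives. Their choice from the same libraries, for large differences without overlap, makes this likely. With 3 libraries a group, single values per library cannot pass an exact test, and genes with few counts show only large changes.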
